A study of Homo sapiens with 24 samples.

Results

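The interaction of dasatinib with SGI-110 is the change that dasatinib made in cells already under SGI-110, minus the change that it made in cells without SGI-110. For each gene it was taken as the log2 fold change of the combination against SGI-110 minus that of dasatinib against DMSO, and its standard error as the root of the summed squared standard errors. A positive interaction means that the gene stood higher in the combination than the sum of the effects of the single drugs gives, and a negative one that it stood lower. It was tested on all 29639 genes and is described for the 11759 genes whose mean normalised count reached 100, of which 11523 had a measurable level in all 4 treatments. The other 17880 genes lay under that level.

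Rh30 and RD, cell lines from an alveolar and an embryonal rhabdomyosarcoma, were each grown for 5 days under both drugs (combination), SGI-110 (0.5 µM), dasatinib or the solvent DMSO alone, with 3 biological replicates in each of the 8 groups. All 4 treatments contained DMSO, since both drugs were dissolved in it. The wording of the protocol does not make clear whether 0.5 µM is also the dose of dasatinib. The 4 tables used here hold the authors' own comparisons and no value per library, so depth per library is unknown and no single replicate can be shown. They name no cell line. Their largest standard error, 6.01 log2 in the authors' deposited tables, is what 3 libraries per treatment give at the highest dispersion (6 libraries would give 4.25), so each value below is read as the response of 1 of the 2 lines, which stays unnamed. The p-values rest on the spread between replicate cultures as the authors' model estimated it. The match with 6.01 log2 takes a highest dispersion of 24, which is the number of libraries of both lines. The model is therefore read as fitted to both lines together. The estimated spread and the mean normalised count then draw on the libraries of both. A gene can thus reach the level set for the mean normalised count through the other line.

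SGI-110 (guadecitabine) releases decitabine, a cytidine analogue that is built into DNA as it is copied and traps DNA methyltransferases, so that methylation is lost as cells divide. Genes silenced by promoter methylation, among them germline genes and retroviral elements that can set off an interferon response, are the best known to respond to such drugs. Dasatinib blocks SRC family kinases, ABL kinases and several receptor kinases, which relay signals from integrins and growth factors to the cytoskeleton, the YAP and TAZ coactivators and the MAPK cascade. Rhabdomyosarcoma cells are of the skeletal muscle lineage. The lineage regulators MYOD1 (mean normalised count 5182) and MYOG (5684) and the filament gene DES (6849) were all measured, from the authors' deposited tables. No member of the immune list or of the adipocyte and liver list reached a mean normalised count of 100. Read as means over both lines, these counts do not give the level in the line whose responses are described.

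The effect of dasatinib differed between the 2 backgrounds for 3790 of the 11759 genes, which is 32.2% (Wald test on the difference, Benjamini-Hochberg over all 29639 genes, adjusted p under 0.05). The interaction was above 0 for 1575 of them (13.4%) and below 0 for 2215 (18.8%). Its size was at least 1 log2 for 365 genes (3.1%), of which 116 were above and 249 below 0, and at least 2 log2 for 38. Over all 11759 genes the interaction had a median of -0.04, with quartiles of -0.27 and 0.18, and a median standard error of 0.12. The share of genes called was higher at higher levels, where the standard error was smaller: it was 24.9% at mean normalised counts of 100 to 300, with a median standard error of 0.196, and 43.7% at 3000 or more, with a median standard error of 0.0857.

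Dasatinib changed a similar number of genes in both backgrounds: 5398 genes (45.9%) on top of SGI-110, by the combination against SGI-110, and 5276 (44.9%) alone, against DMSO, at an adjusted p under 0.05 in the authors' deposited tables. The 2 comparisons share no library. Of the 2791 genes that rose on top of SGI-110, 1295 (46.4%) also rose with dasatinib alone, which is 40.2% of the 3225 that rose alone. Of the 2607 that fell on top of SGI-110, 852 (32.7%) also fell alone, which is 41.5% of the 2051 that fell alone. Across genes, both responses had a Pearson r of 0.40 and a Spearman rho of 0.31, given as a description only. The spread of the response across genes was smaller on top of SGI-110, with an SD of 0.405, against 0.461 for dasatinib alone.

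Genes with a called interaction were sorted by how the response to dasatinib differed. Antagonism, a response that was weaker with SGI-110 than without it or that turned round, covered 2264 genes (59.7% of the 3790), and synergy, a response that was stronger or appeared only in the presence of SGI-110 by these calls, covered 1436 (37.9%). Within antagonism, 1328 genes had lost a response that was called alone, 630 were called in opposite directions in the 2 backgrounds (reversed), and 306 moved the same way by less (attenuated). Within synergy, 1233 genes were called on top of SGI-110 but not alone (gained), and 203 moved the same way by more (amplified). In the remaining 90 genes neither response was called. Synergy here concerns the response to dasatinib and does not mean that both drugs moved a gene the same way. In 734 of the 1233 gained genes (59.5%) the interaction was opposite to a called effect of SGI-110 alone. It had the sign of that effect in 187 (15.2%), and SGI-110 alone was not called in 312 (25.3%). These shares are a description only, since SGI-110 against DMSO shares libraries with the interaction. Among the 365 interactions of at least 1 log2, antagonism had 270 genes (74%) and synergy 93 (25.5%). Of the 270, 126 were reversed, 104 lost and 40 attenuated. Reversed genes made up 34.5% of the 365, against 16.6% of the 3790. In a reversed gene the sizes of both responses add up in the interaction, so a limit on size favours this class. The larger share of antagonism past 1 log2 is therefore a description and no separate finding. Lost and gained rest on a threshold in each background, so only the interaction itself is a test of the difference.

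**Figure D1:**
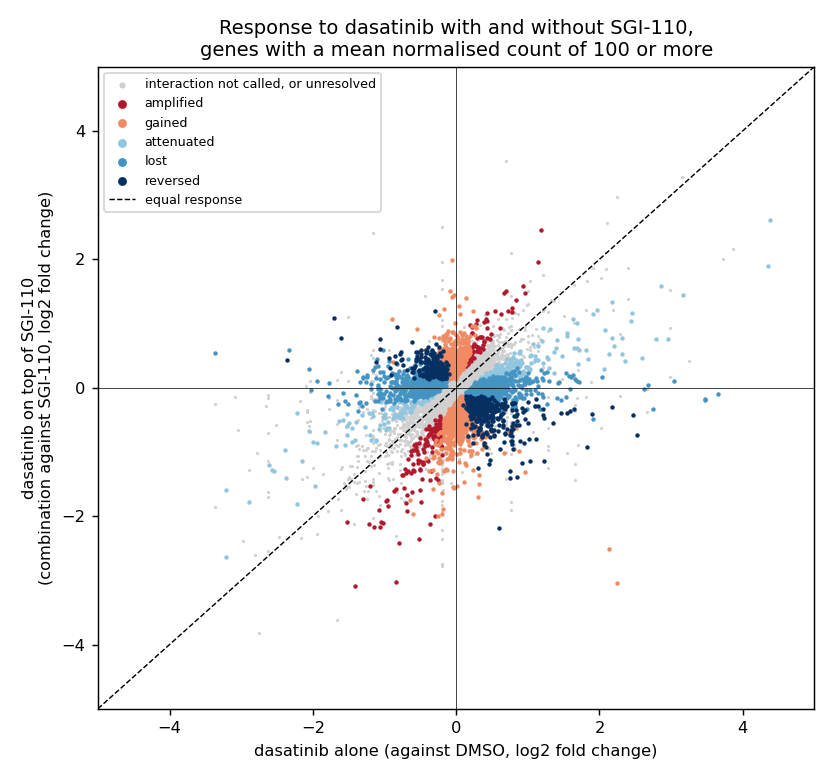
Each point is a gene with a mean normalised count of 100 or more, plotted by its log2 fold change for dasatinib on top of SGI-110 (vertical axis) and for dasatinib alone (horizontal axis), and coloured by class. Genes on the dashed line responded equally in both backgrounds; lost genes lie along the horizontal axis, gained genes along the vertical axis, and 2 genes fall outside the plotted range of 5 log2 either side of 0.

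**Figure D2:**
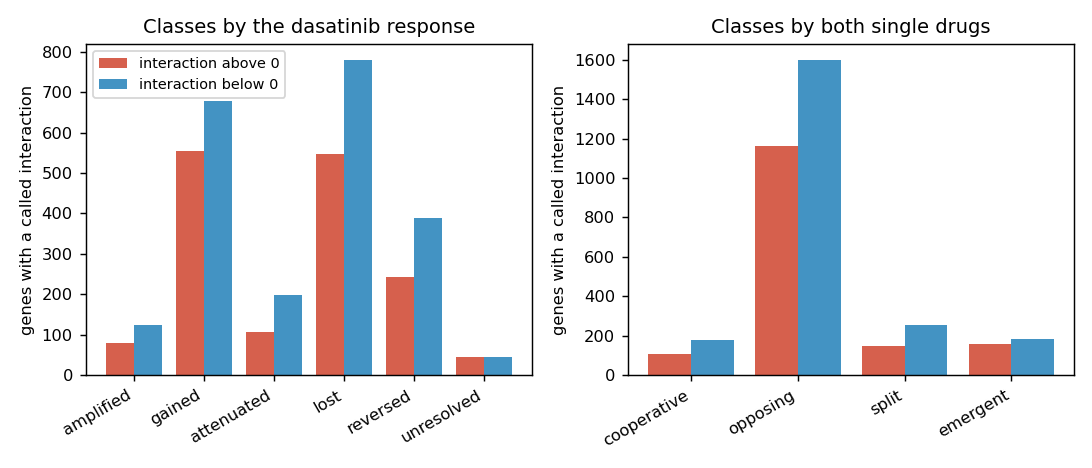
Bars count the genes with a called interaction above 0 (red) and below 0 (blue), on the left by how the response to dasatinib differed and on the right by the direction of the interaction relative to both single drugs. The tallest pair on the left is the lost class, with 547 and 781 genes, and on the right the opposing class, with 1164 and 1601 genes.

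Among genes with a standard error of at most 0.5 and a measurable level in all 4 treatments, the largest negative interaction was that of TXNIP, an arrestin-related protein that binds thioredoxin and restrains glucose uptake (GRCh38, chromosome 1, 145992435 to 145996600, minus strand). In the authors' deposited tables TXNIP stood at -0.18 ± 0.09 log2 for dasatinib on top of SGI-110, against 3.47 ± 0.10 for dasatinib alone, where it rose 11.1-fold. The interaction was -3.65 ± 0.13 (adjusted p = 5e-173). SGI-110 alone raised TXNIP by 3.81 ± 0.09 and the combination by 3.64 ± 0.10 against DMSO in the authors' deposited tables, so all 3 treatments stood at about the same level above DMSO. The DMSO libraries enter all 3 values and the interaction. A low level in the DMSO cultures alone and a like response to both drugs therefore cannot be told apart. TXNIP is a known target of MondoA and its relatives, which bind the carbohydrate response element. A search of both strands for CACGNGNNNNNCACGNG found that element in the window of TXNIP, 250 bases before to 50 after its start in RefSeq (GRCh38.p14), and in 0.057% of all 35116 such windows. Among the 15 genes over the level limit that held it, TXNIP included, 2 had a called negative interaction and 1 a positive one. Whether the element has a part in the interaction was not tested. The stretch that holds it (chr1:145996590-145996729, minus strand, 5′ to 3′) is shown with the element in capitals.
TXNIP: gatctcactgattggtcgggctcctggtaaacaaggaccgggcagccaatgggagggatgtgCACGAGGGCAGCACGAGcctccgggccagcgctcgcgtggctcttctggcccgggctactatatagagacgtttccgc

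ARRDC4, the arrestin gene most like TXNIP and another MondoA target, was looked up after the values of TXNIP were seen. It had 0.11 ± 0.16 on top of SGI-110, against 1.69 ± 0.30 alone, in the authors' deposited tables, and an interaction of -1.58 ± 0.35 (adjusted p = 9.6e-05).

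Most of the 15 largest negative interactions under these limits were lost responses, as for TXNIP, or reversed ones. MYLK4, a myosin light chain kinase gene, stood at -0.73 ± 0.18 on top of SGI-110, against 2.52 ± 0.26 alone, in the authors' deposited tables (interaction -3.25 ± 0.31). DMBT1, a secreted scavenger receptor, fell by 0.43 ± 0.08 on top of SGI-110, against a rise of 2.47 ± 0.09 alone, in the authors' deposited tables (interaction -2.90 ± 0.12). FOS, a subunit of the AP-1 factor, fell by 0.40 ± 0.11 on top of SGI-110, against a rise of 1.89 ± 0.11 alone, in the authors' deposited tables (interaction -2.29 ± 0.15). The T-type calcium channel gene CACNA1H fell by 2.19 ± 0.16 on top of SGI-110, against a rise of 0.60 ± 0.20 alone, in the authors' deposited tables (interaction -2.78 ± 0.26). AFAP1L2, an adaptor that SRC phosphorylates, rose in both backgrounds, by 1.89 ± 0.11 on top of SGI-110, against 4.35 ± 0.28 alone, in the authors' deposited tables. XIRP1, an actin-binding protein of muscle, was amplified, at -3.02 ± 0.15 on top of SGI-110, against -0.84 ± 0.14 alone, in the authors' deposited tables. The others were ART3, SLC38A3, SERPINB1, ARHGEF16, DHRS2, ADIRF-AS1, RP11-362F19.1 and AGXT, with interactions from -3.08 (ART3) to -2.19 (AGXT). ADIRF-AS1 is named as an antisense gene, and the strand setting of the counting is not given in the sources used here.

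Of the 38 interactions of at least 2 log2, 9 were positive and 29 negative. KLHDC7B, a kelch-domain gene of low level, had the largest positive one under the same limits, at 2.92 ± 0.46, and stood at 0.59 ± 0.33 on top of SGI-110, against -2.33 ± 0.32 alone, in the authors' deposited tables. The sodium channel gene SCN9A rose by 0.77 ± 0.20 on top of SGI-110, against -1.61 ± 0.19 alone, in the authors' deposited tables (interaction 2.39 ± 0.28). BEST1, an anion channel gene, stood at 0.30 ± 0.24 on top of SGI-110, against -2.06 ± 0.21 alone, in the authors' deposited tables (interaction 2.35 ± 0.32). Unlike these, COX10, an enzyme gene of haem A synthesis for cytochrome oxidase (chromosome 17, 14069496 to 14208677), changed in the combination and in neither single-drug treatment. It rose by 2.00 ± 0.07 on top of SGI-110, against -0.06 ± 0.08 for dasatinib alone, in the authors' deposited tables, and its interaction was 2.06 ± 0.10 (adjusted p = 7.4e-86). MURC, a caveolar protein of muscle also called cavin 4, had the same form, with 1.51 ± 0.10 on top of SGI-110, against -0.09 ± 0.11 alone, in the authors' deposited tables. The others of the 15 were AKNA, CFAP61, SLC43A3, QRICH2, THBS4, GPR137C, TMEM150A, RP4-756G23.5, GPNMB and RP3-368A4.5, with interactions from 2.04 (AKNA) to 1.62 (RP3-368A4.5).

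**Figure D3:**
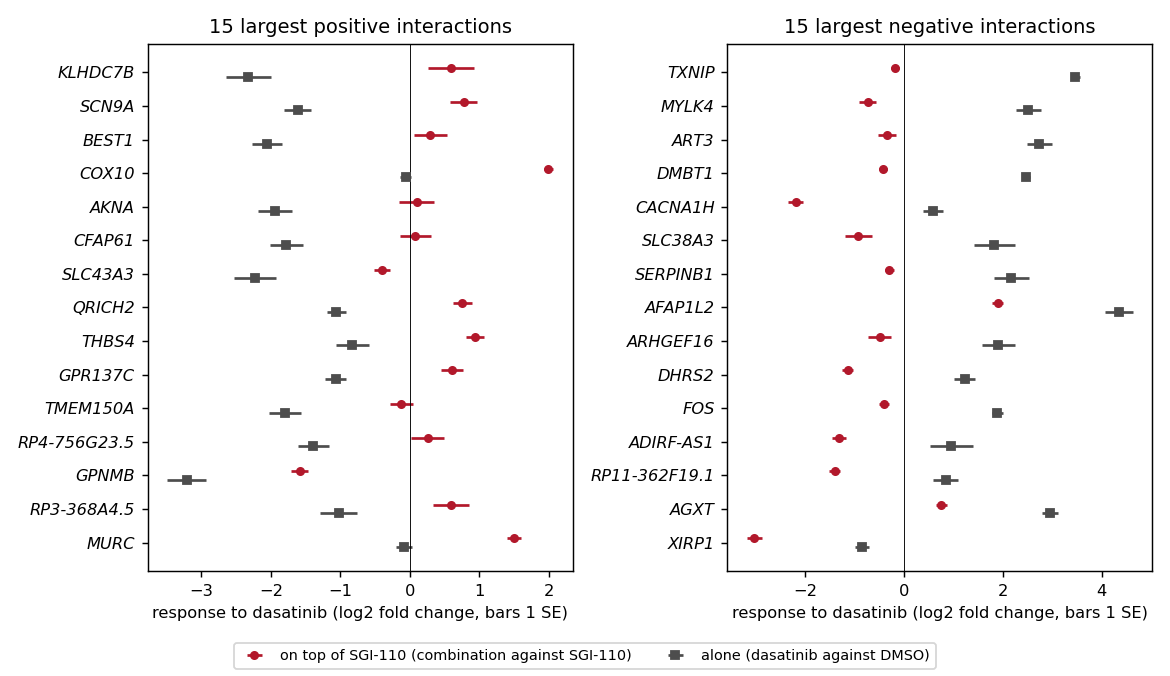
Points show the log2 fold change of dasatinib on top of SGI-110 (red circles) and of dasatinib alone (grey squares) for the 15 largest positive and the 15 largest negative interactions among measurable genes with a standard error of at most 0.5, with bars of 1 standard error. On the left COX10 and MURC stand out with no response alone; on the right the response alone lies far above 0 for TXNIP, MYLK4, ART3 and DMBT1 while that on top of SGI-110 is below 0.

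Within the classes, the genes with the strongest statistics showed each form clearly. Amplified rises included DAPK1, a death-associated kinase (0.85 ± 0.05 on top of SGI-110, against 0.22 ± 0.05 alone), and TBC1D9 (1.05 ± 0.07, against 0.29 ± 0.07), in the authors' deposited tables. MEGF6, an EGF-repeat protein, was an amplified fall, at -2.42 ± 0.13 on top of SGI-110, against -0.80 ± 0.10 alone, in the authors' deposited tables. Gained rises included IRAK3, a brake on Toll-like receptor signalling (1.42 ± 0.08 on top of SGI-110, against -0.05 ± 0.09 alone), and FAM13B (1.28 ± 0.07, against 0.04 ± 0.07), in the authors' deposited tables. Among gained falls were GBP2, an interferon-induced GTPase (-1.46 ± 0.07 on top of SGI-110, against 0.11 ± 0.08 alone), and the actin-binding genes ABLIM1 (-0.97 ± 0.06, against 0.11 ± 0.06) and RAI14 (-0.70 ± 0.05, against 0.09 ± 0.05), in the authors' deposited tables. Attenuated rises included PDE4B, a cyclic AMP phosphodiesterase (1.45 ± 0.07 on top of SGI-110, against 3.17 ± 0.09 alone), and ALDH1A3, which makes retinoic acid (0.58 ± 0.05, against 1.81 ± 0.06), in the authors' deposited tables.

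Gene lists were described by the number of members whose interaction was called, beside the background of 13.4% of genes called higher and 18.8% called lower. Counts of members that rose or fell with dasatinib have another background. Of all 11759 genes, 2791 rose and 2607 fell on top of SGI-110, and 3225 rose and 2051 fell with dasatinib alone. A list's members were chosen with earlier results of these data known, so its count is a description and no test of the list. Because RNA came from whole cultures, fewer cells in a given state and less RNA per cell cannot be told apart.

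Endoplasmic reticulum chaperone genes, which fold secreted proteins, were antagonised in all 14 members measured: each had a positive interaction past the threshold. Their median interaction was 0.66, from a median of 0.08 on top of SGI-110, against -0.55 for dasatinib alone. All 14 fell with dasatinib alone, whereas on top of SGI-110 3 rose and none fell, at an adjusted p under 0.05 in the authors' deposited tables. HSPA5 (BiP), the main chaperone and sensor of the unfolded protein response, stood at 0.08 ± 0.05 on top of SGI-110, against -1.34 ± 0.05 alone, in the authors' deposited tables, an interaction of 1.43 ± 0.07 (adjusted p = 1.8e-80). Similar values held for HYOU1, which reloads HSPA5 with nucleotide (interaction 1.07 ± 0.10), and for the secreted stress factor MANF (0.91 ± 0.10). HSP90B1, the HSP90 of the endoplasmic reticulum, rose by 0.30 ± 0.05 on top of SGI-110, against -0.37 ± 0.05 alone, in the authors' deposited tables. The lectin chaperone genes CALR (interaction 0.63 ± 0.09) and CANX (0.60 ± 0.08) stood near 0 on top of SGI-110. SGI-110 alone lowered the list as far as dasatinib did, with a median of -0.55, and the combination stood at -0.62. Of the 14 members, 6 had DMSO apart from the other 3 treatments, against 482 of all 11759 genes, a pattern described further on.

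ATF6 and related factors bind the endoplasmic reticulum stress response element in such genes. On both strands, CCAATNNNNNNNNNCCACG was found in the windows of CALR, CANX, HSP90B1, HSPA5 and XBP1, which are 5 of the 13 members with a window, and in 0.0769% of all 35116 windows. Each member was counted by its first window, whereas the 0.0769% is over all windows, several of which can belong to a single gene. Among the 14 genes over the level limit that held it, 9 had a called positive interaction and none a negative one. Over all genes 13.4% were called higher. Of the 9, 5 are the list members just named, which were called like the whole list and add nothing to it. Outside the list the called holders were CRELD2 (0.90 ± 0.11), TRIM5 (0.81 ± 0.15), FICD (0.68 ± 0.20) and EIF2A (0.49 ± 0.09), named after their values were seen. Whether the element has a part in the interaction was not tested. The stretches printed here show the element in capitals in the genes that carry the result, HSPA5 (chr9:125241344-125241483, minus strand), HSP90B1 (chr12:103930160-103930299, plus strand) and CANX (chr5:179698717-179698856, plus strand), from RefSeq on GRCh38.p14, 5′ to 3′.
HSPA5: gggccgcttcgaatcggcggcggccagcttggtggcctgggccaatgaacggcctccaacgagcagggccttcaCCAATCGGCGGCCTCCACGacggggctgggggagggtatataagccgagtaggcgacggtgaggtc
HSP90B1: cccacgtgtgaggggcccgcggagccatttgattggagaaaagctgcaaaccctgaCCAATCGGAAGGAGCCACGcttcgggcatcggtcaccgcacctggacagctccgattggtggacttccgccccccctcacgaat
CANX: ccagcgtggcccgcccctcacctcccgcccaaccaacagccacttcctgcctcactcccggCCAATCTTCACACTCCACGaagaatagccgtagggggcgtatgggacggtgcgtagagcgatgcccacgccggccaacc

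Ribosomal protein, lysosome and antigen presentation genes also leaned towards positive interactions. Of 30 ribosomal protein genes, 20 were called higher and none lower, with a median of 0.34, from 0.10 on top of SGI-110, against -0.20 alone. RPL30 rose by 0.20 ± 0.07 on top of SGI-110, against -0.33 ± 0.07 alone, in the authors' deposited tables, and RPS4X by 0.25 ± 0.07, against -0.21 ± 0.07. Processed pseudogenes resemble ribosomal protein genes, so how reads were shared among them is uncertain. Lysosome and autophagy genes had 9 higher and 2 lower of 19 (median 0.23), including the sialidase gene NEU1 (interaction 0.94 ± 0.13), the saposin precursor PSAP (0.71 ± 0.10) and the autophagy receptor SQSTM1 (0.67 ± 0.09), while the protease gene CTSB went the other way (-0.67 ± 0.09). In antigen presentation 7 of 17 were higher and 2 lower (median 0.14). ERAP1, which trims peptides, had 1.13 ± 0.14 and HLA-E -0.44 ± 0.09, and reads of HLA genes may be shared among their near copies. The ATF4 stress response went both ways, with 4 higher, 3 lower and 11 not called of 18. DDIT3, a factor induced by stress of the endoplasmic reticulum, stood at -0.12 ± 0.07 on top of SGI-110, against -1.40 ± 0.07 alone, in the authors' deposited tables, and TRIB3 at 0.44 ± 0.20, against -1.10 ± 0.20. PSAT1 of serine synthesis (-0.36 ± 0.11) and MTHFD2 of mitochondrial folate metabolism (-0.43 ± 0.11) had negative interactions. The host genes of small nucleolar RNAs GAS5 (-0.22 ± 0.05 on top of SGI-110, against -1.05 ± 0.05 alone) and C6orf48 (-0.03 ± 0.08, against -1.19 ± 0.07), in the authors' deposited tables, were among the strongest of the attenuated and lost classes.

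Mitotic genes gave the opposite picture, with 24 of 26 called lower and none higher. Their median interaction was -0.50, from 0.17 on top of SGI-110, against 0.71 for dasatinib alone. Dasatinib alone raised 25 of the 26 and on top of SGI-110 it raised 15, at an adjusted p under 0.05 in the authors' deposited tables, so the direction was mostly kept and the size was smaller: 14 were attenuated and 10 lost. KIF20A, a kinesin of cytokinesis, stood at 0.10 ± 0.05 on top of SGI-110, against 0.98 ± 0.05 alone, in the authors' deposited tables, an interaction of -0.87 ± 0.07 (adjusted p = 1.1e-28). CDC20, which activates the anaphase-promoting complex, stood at 0.00 ± 0.08, against 0.91 ± 0.08 alone, in the authors' deposited tables (interaction -0.91 ± 0.11). HMMR, a spindle protein, rose in both backgrounds, by 0.38 ± 0.07 on top of SGI-110, against 1.21 ± 0.07 alone, in the authors' deposited tables. The kinase genes AURKA (-0.76 ± 0.09), PLK1 (-0.70 ± 0.09) and BUB1 (-0.70 ± 0.07) had like interactions. CENPF (-0.13 ± 0.09) and CDC25B (0.11 ± 0.09) did not pass the test. SGI-110 alone had a median of 0.35 over the list and the combination 0.54 against DMSO.

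Genes of this programme carry the cell cycle homology region in their promoters, which the DREAM and MuvB complexes bind. Its letters TTTGAA, on either strand, were in 13 of the 21 members with a window and in 15.2% of all windows. Each member was counted by its first window, whereas the 15.2% is over all windows, several of which can belong to a single gene. Copies in HMMR (chr5:163460492-163460631, plus strand) and CDC20 (chr1:43358736-43358875, plus strand) are shown in capitals, from RefSeq on GRCh38.p14, 5′ to 3′, to set an attenuated member beside a lost one. In CDC20 the element lies on the opposite strand.
HMMR: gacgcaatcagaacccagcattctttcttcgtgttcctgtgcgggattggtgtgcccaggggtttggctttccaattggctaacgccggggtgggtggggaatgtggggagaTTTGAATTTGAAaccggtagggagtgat
CDC20: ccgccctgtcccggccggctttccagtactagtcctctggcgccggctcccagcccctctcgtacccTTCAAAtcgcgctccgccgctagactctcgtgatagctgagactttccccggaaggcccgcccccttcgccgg

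DNA replication genes had 5 members higher and 3 lower of 30, with medians of 0.29 on top of SGI-110, against 0.27 alone, and dasatinib raised 24 and 23 of them in the authors' deposited tables. MCM6 of the replicative helicase was attenuated (interaction -0.35 ± 0.10) and the polymerase gene POLE gained a rise (0.37 ± 0.09). Replication and linker histone genes had the lowest list median, -1.19, with 10 of 11 called lower. The linker histone gene HIST1H1C fell by 1.13 ± 0.07 on top of SGI-110, against a rise of 0.47 ± 0.12 alone, in the authors' deposited tables, and HIST1H2BK fell by 0.35 ± 0.07, against a rise of 0.83 ± 0.14. These genes stood at a median of 4.94 with SGI-110 alone and 3.68 with the combination against DMSO. The libraries were poly(A)-selected and histone genes are near copies of each other, so only transcripts with a tail and uncertainly shared reads are behind these values. Targets of p53 had 12 lower and none higher of 25 (median -0.25), with the repair gene DDB2 at -1.18 ± 0.15, GADD45A at -0.56 ± 0.08 and MDM2, which degrades p53, at -0.54 ± 0.09. Cell cycle inhibitors had 3 lower and 1 higher of 10, with CDKN1A (p21) at -0.53 ± 0.11 and CDKN2D at -0.50 ± 0.10 on top of SGI-110, against 0.66 ± 0.11 alone, in the authors' deposited tables.

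**Figure D4:**
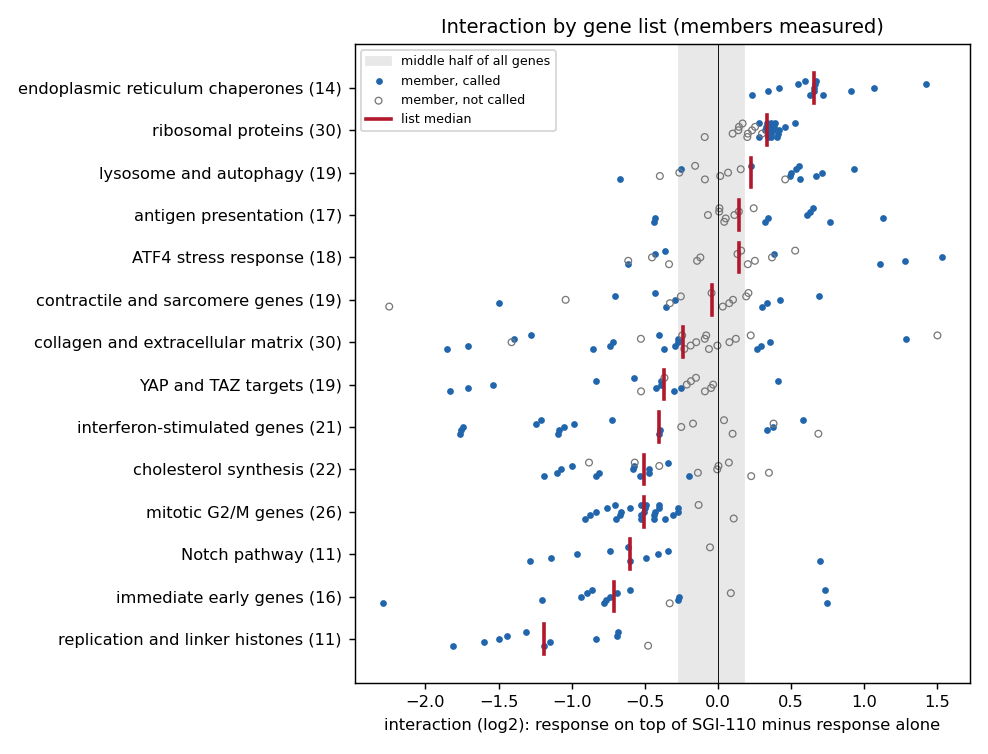
Each point is a member of a gene list with a mean normalised count of 100 or more, placed by its interaction (log2), filled where it was called, with the list median as a red bar and the number of members in brackets. The grey band runs between the quartiles of all genes, -0.27 and 0.18; the 14 chaperone genes lie above 0 and the 11 histone genes below 0.

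Genes that answer to adhesion, growth factors and the cytoskeleton mostly had negative interactions. Immediate early genes, which respond within minutes to such signals, had 12 lower and 2 higher of 16 (median -0.71). FOSL2 fell by 0.37 ± 0.05 on top of SGI-110, against a rise of 0.49 ± 0.05 alone, in the authors' deposited tables (interaction -0.86 ± 0.06). KLF6 stood at -0.82 ± 0.06 on top of SGI-110, against 0.08 ± 0.06 alone, in the authors' deposited tables (interaction -0.89 ± 0.09). FOSL1 (0.73 ± 0.18) and KLF4 (0.75 ± 0.14) were the members called higher. Feedback genes of the MAPK cascade had 9 lower and 2 higher of 20, among them the phosphatase gene DUSP1 (-0.97 ± 0.11), IER3 (-1.24 ± 0.15) and the ETS factor gene ETV4 (-0.81 ± 0.13). Of the Notch pathway, 9 of 11 were lower and 1 higher (median -0.60). Its receptor gene NOTCH3 fell by 0.62 ± 0.08 on top of SGI-110, against a rise of 0.34 ± 0.08 alone, in the authors' deposited tables, its ligand gene DLL1 had an interaction of -0.61 ± 0.10 and its target HES1 one of -1.28 ± 0.18. HEY1, another target, was the member called higher (0.70 ± 0.11).

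Targets of YAP and TAZ had 10 lower and 1 higher of 19, with a median of -0.38 on top of SGI-110, against 0.01 alone. On top of SGI-110 14 fell and none rose, whereas alone 7 fell and 5 rose, at an adjusted p under 0.05 in the authors' deposited tables. CYR61, a secreted matricellular protein, stood at -1.52 ± 0.06 on top of SGI-110, against 0.01 ± 0.07 alone, in the authors' deposited tables, an interaction of -1.54 ± 0.09 (adjusted p = 2e-60). SGI-110 alone had raised CYR61 by 2.43 ± 0.06, and the combination stood 0.91 ± 0.07 above DMSO, in the authors' deposited tables. CTGF (-1.71 ± 0.25) and the ligand gene TGFB2 (-1.83 ± 0.25) had like interactions, and FJX1 was the member called higher (0.41 ± 0.14). The classic target ANKRD1 fell about equally in both backgrounds, with -1.22 ± 0.11 on top of SGI-110, against -1.19 ± 0.13 alone, in the authors' deposited tables, with an interaction of -0.03 ± 0.17 that did not pass the test. SRF and cytoskeleton genes had 10 lower and 2 higher of 19, with LIMA1 at -0.79 ± 0.11, TAGLN2 at -0.76 ± 0.10 and the myosin gene MYH9 at -0.48 ± 0.10. Focal adhesion and integrin genes had 9 lower and none higher of 20, with the crosslinker gene ACTN1 at -0.57 ± 0.08 and the laminin receptor subunit gene ITGA3 at -0.57 ± 0.15.

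Collagen and matrix genes had 12 lower and 4 higher of 30, and TGF-beta targets 7 lower and 1 higher of 12 (median -0.46). COL1A1, a chain of type I collagen (chromosome 17, 50183289 to 50201632), stood at -2.00 ± 0.06 on top of SGI-110, against -0.29 ± 0.08 alone, in the authors' deposited tables, an interaction of -1.71 ± 0.10 (adjusted p = 4.7e-65). Against DMSO it stood at 2.50 ± 0.07 with the combination and 4.50 ± 0.07 with SGI-110, in the authors' deposited tables. The adhesive glycoprotein gene THBS1 (-1.28 ± 0.10), VCAN (-0.86 ± 0.08), TGFBI (-0.74 ± 0.15) and JUNB (-1.20 ± 0.20) also had negative interactions, and TGFB1I1 a positive one (0.51 ± 0.11). Of the 6 fibroblast markers measured, 2 were lower, none higher and 4 not called. Both called members, COL1A1 and COL1A2, are matrix genes themselves. The part of fibroblast markers in the result was not tested. Endothelial markers had 1 higher and 1 lower of 2, epithelial markers 1 lower of 2 (CLDN4, -1.29 ± 0.20) and neural markers 1 higher and 1 lower of 5. PECAM1, the endothelial adhesion molecule, fell by 0.40 ± 0.07 on top of SGI-110, against a rise of 1.55 ± 0.08 alone, in the authors' deposited tables.

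Among interferon-stimulated genes, 12 of 21 were lower and 3 higher. By class, 6 were gained and 5 amplified, while 1 was attenuated, 2 were lost and 1 was reversed. The list stood at a median of -0.77 on top of SGI-110, against -0.26 alone, and 16 members fell on top of SGI-110, against 9 alone, at an adjusted p under 0.05 in the authors' deposited tables. SGI-110 alone stood at a median of 1.30 against DMSO and the combination at 0.38. IFIT2, which binds foreign RNA, stood at -1.96 ± 0.13 on top of SGI-110, against -0.20 ± 0.16 alone, in the authors' deposited tables (interaction -1.76 ± 0.21). DDX60 stood at -2.12 ± 0.13 on top of SGI-110, against -0.36 ± 0.14 alone, in the authors' deposited tables (interaction -1.76 ± 0.19). DDX58, the RNA sensor RIG-I (-1.21 ± 0.16), and the ubiquitin-like modifier ISG15 (-1.09 ± 0.14) also had negative interactions. STAT2, a subunit of the factor that interferon activates (0.38 ± 0.08), IRF1 (0.59 ± 0.15) and IFI16 (0.34 ± 0.11) were the members called higher. NF-kB and inflammatory genes had 4 lower and 1 higher of 10, with the cytokine gene IL11 at -1.23 ± 0.11, BCL3 at -0.91 ± 0.17 and NFKB1 at 0.34 ± 0.09.

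IFI44, with the strongest statistic of the list, stood at -1.12 ± 0.06 on top of SGI-110, against -0.06 ± 0.07 alone, in the authors' deposited tables (interaction -1.05 ± 0.09, adjusted p = 4.3e-27). The interferon-stimulated response element, searched as GAAANNGAAA on both strands, was in 3.57% of all windows. Windows were held for 16 of the 21 members, which is 76.2% and under the 80% needed, so a share for the list is void. The stretch of IFI44 with the element in capitals, on the opposite strand, is chr1:78649649-78649788 (plus strand, RefSeq, GRCh38.p14, 5′ to 3′).
IFI44: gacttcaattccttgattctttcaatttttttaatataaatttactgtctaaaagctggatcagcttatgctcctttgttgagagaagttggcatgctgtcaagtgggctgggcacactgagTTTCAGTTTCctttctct

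Cholesterol synthesis genes stood lower with both drugs than with either one, by their medians. Of 22 members 13 were lower and none higher (median -0.50), from -0.31 on top of SGI-110, against 0.05 alone. Dasatinib on top of SGI-110 lowered 16 of the 22, whereas alone it raised 6 and lowered 2, at an adjusted p under 0.05 in the authors' deposited tables. MSMO1, a sterol demethylation enzyme, stood at -1.44 ± 0.10 on top of SGI-110, against -0.26 ± 0.08 alone, in the authors' deposited tables (interaction -1.19 ± 0.13). Squalene synthase, FDFT1, fell by 0.86 ± 0.07 on top of SGI-110, against a rise of 0.24 ± 0.07 alone, in the authors' deposited tables (interaction -1.10 ± 0.10). SREBF2, the factor that drives these genes, stood at -0.53 ± 0.07, against 0.05 ± 0.07 alone, in the authors' deposited tables (interaction -0.58 ± 0.09). Against DMSO the list stood at a median of -0.66 with the combination, -0.30 with SGI-110 and 0.05 with dasatinib.

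Muscle structure genes mostly fell with dasatinib in both backgrounds, and their interactions went both ways. Contractile and sarcomere genes had 5 lower and 4 higher of 19, with a median interaction of -0.04. They fell to a median of -1.06 on top of SGI-110, against -0.62 alone, and 16 fell on top of SGI-110, against 15 alone, at an adjusted p under 0.05 in the authors' deposited tables. The troponin gene TNNT2 stood at -1.51 ± 0.07 on top of SGI-110, against -1.55 ± 0.07 alone, in the authors' deposited tables, with an interaction of 0.03 ± 0.10 that did not pass the test. The embryonic light chain gene MYL4 was amplified (-0.70 ± 0.13), and the embryonic myosin gene MYH3 lost its fall (0.69 ± 0.16). Myogenic regulators had 4 lower and 1 higher of 16. MYOG, the differentiation factor, stood at -0.84 ± 0.07 on top of SGI-110, against -0.41 ± 0.07 alone, in the authors' deposited tables (interaction -0.44 ± 0.09), and MYOD1 had an interaction of -0.09 ± 0.17 that did not pass. Genes known as PAX3-FOXO1 targets had 5 lower and 4 higher of 15. Of these the receptor kinase gene ALK rose by 1.47 ± 0.10 on top of SGI-110, against 0.67 ± 0.08 alone, in the authors' deposited tables, PIPOX had an interaction of 0.72 ± 0.11 and PODXL one of -0.75 ± 0.07. Since the line is unnamed, it cannot be said whether the fusion protein was present.

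The targets of the drugs themselves were also measured. In the SRC family and ABL list 4 of 8 were lower and none higher: ABL2 was amplified (-0.36 ± 0.08), FYN attenuated (-0.42 ± 0.11) and YES1 lost (-0.32 ± 0.10), and LYN (-0.50 ± 0.17) was called with neither response called. SRC (-0.22 ± 0.11) and ABL1 (-0.16 ± 0.08) did not pass. Other kinases that dasatinib binds had 5 lower and 1 higher of 9, with the receptor kinase gene EPHA2 at -0.30 ± 0.07 on top of SGI-110, against 0.38 ± 0.11 alone, in the authors' deposited tables. DDR2 (0.33 ± 0.10) was the one called higher, and DDR1 (-0.08 ± 0.09) and PDGFRB (-0.50 ± 0.19, adjusted p = 0.067) were not called. DNA methylation machinery had 4 higher and 4 lower of 14. Maintenance methyltransferase DNMT1 rose by 0.35 ± 0.05 on top of SGI-110, against 0.11 ± 0.05 alone, in the authors' deposited tables (interaction 0.24 ± 0.07), whereas DNMT3A (-0.49 ± 0.06) and DNMT3B (-1.07 ± 0.13) had negative interactions. RNA levels do not show kinase or methyltransferase activity.

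Genes that SGI-110 switches on could hardly be tested. Among cancer-testis genes 14 of 30 reached the level limit, and SSX1 was called (1 lower, none higher), at -3.66 ± 1.30. Of the 30, 28 had no measurable level with dasatinib alone or with DMSO, so a missing call says nothing about them. For MAGEA4 and PRAME the standard error was 1.67 log2 with dasatinib alone in the authors' deposited tables. With SGI-110 present dasatinib left PRAME at -1.28 ± 0.06, in the authors' deposited tables, while MAGEA4 stood at -0.16 ± 0.12. Germline and meiosis genes had 4 lower and none higher of 15. Of the 29 found at any level, 14 had no measurable level with dasatinib alone and 15 none with DMSO. A missing call in this list therefore need not mean an equal response. TDRD1 of the piRNA pathway fell by 0.42 ± 0.07 on top of SGI-110, against a rise of 1.22 ± 0.11 alone, in the authors' deposited tables (interaction -1.64 ± 0.13), and TEX14 had an interaction of -1.43 ± 0.15. Imprinted genes had 4 lower and 2 higher of 17, among them PEG10 (-0.67 ± 0.07), which rose in both backgrounds.

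In the remaining lists members were called in both directions, beside the background of 13.4% higher and 18.8% lower. Apoptosis regulators had 4 lower and 3 higher of 17: PMAIP1 (NOXA) stood at -0.98 ± 0.09 on top of SGI-110, against -0.05 ± 0.09 alone, in the authors' deposited tables, BCL2L1 was amplified (-0.40 ± 0.10), and BMF had an interaction of 0.58 ± 0.10. Hypoxia and glycolysis genes had 4 lower and 2 higher of 19, with the kinase gene PFKP at -0.85 ± 0.11 and VEGFA at 0.54 ± 0.10. Nuclear respiratory chain genes had 5 lower and 2 higher of 23, with SDHB at -0.53 ± 0.10. Growth factor ligands and receptors had 5 lower and 2 higher of 18, with HBEGF at -1.04 ± 0.18 and FGFR1 at -0.32 ± 0.07.

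Relative to both single drugs, called genes fell into 4 classes. In 2765 (73%) the interaction was opposed to every single-drug effect that was called, in 282 (7.44%) it had the sign of every one called (cooperative), in 405 (10.7%) the single drugs were called in opposite directions (split) and in 338 (8.92%) neither was called (emergent). This is a description only: SGI-110 against DMSO, in which 7936 genes (67.5%) were called, and the combination against DMSO, in which 8016 (68.2%) were called, share libraries with the interaction and with dasatinib against DMSO. Cooperative genes included TBC1D9, DAPK1, IRAK3 and MSMO1. Seen from the other drug, SGI-110 changed 7636 genes (64.9%) in the presence of dasatinib, by the combination against dasatinib (Wald test, Benjamini-Hochberg), and SGI-110 and dasatinib differed in 8108 (69%).

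In 900 of the 3790 genes (23.7%) 1 treatment stood apart while the other 3 could not be separated by the calls, a pattern looked for after the data were seen. The combination stood apart in 186 genes, SGI-110 in 210, dasatinib in 223 and DMSO in 281. COX10, KLF9, the basement membrane gene AGRN, SAMD4A, SLC6A6 and TAGLN2 were the 6 strongest for the combination: KLF9 stood at -0.82 ± 0.09 with the combination, 0.04 ± 0.09 with SGI-110 and 0.04 ± 0.09 with dasatinib against DMSO, in the authors' deposited tables. Genes of SGI-110 alone, in which the combination could not be separated from DMSO, included IFIT1 (-0.13 ± 0.20 with the combination, 1.87 ± 0.17 with SGI-110 and -0.26 ± 0.20 with dasatinib, in the authors' deposited tables), CTSB, EHD4, RHEBL1, DERL2 and DLEU1. TRIB2, a pseudokinase gene, stood for dasatinib alone, at -0.09 ± 0.05 with the combination, -0.07 ± 0.05 with SGI-110 and 0.71 ± 0.05 with dasatinib, in the authors' deposited tables. In the DMSO pattern the 3 drug treatments shared a level, as for IL11 at 1.06, 1.14 and 1.14 and MANF at -0.79, -0.87 and -0.84 with the combination, SGI-110 and dasatinib. Since the DMSO libraries enter all 3 of these values and the interaction, a level found only in the DMSO cultures and a like response to both drugs cannot be told apart.

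**Figure D5:**
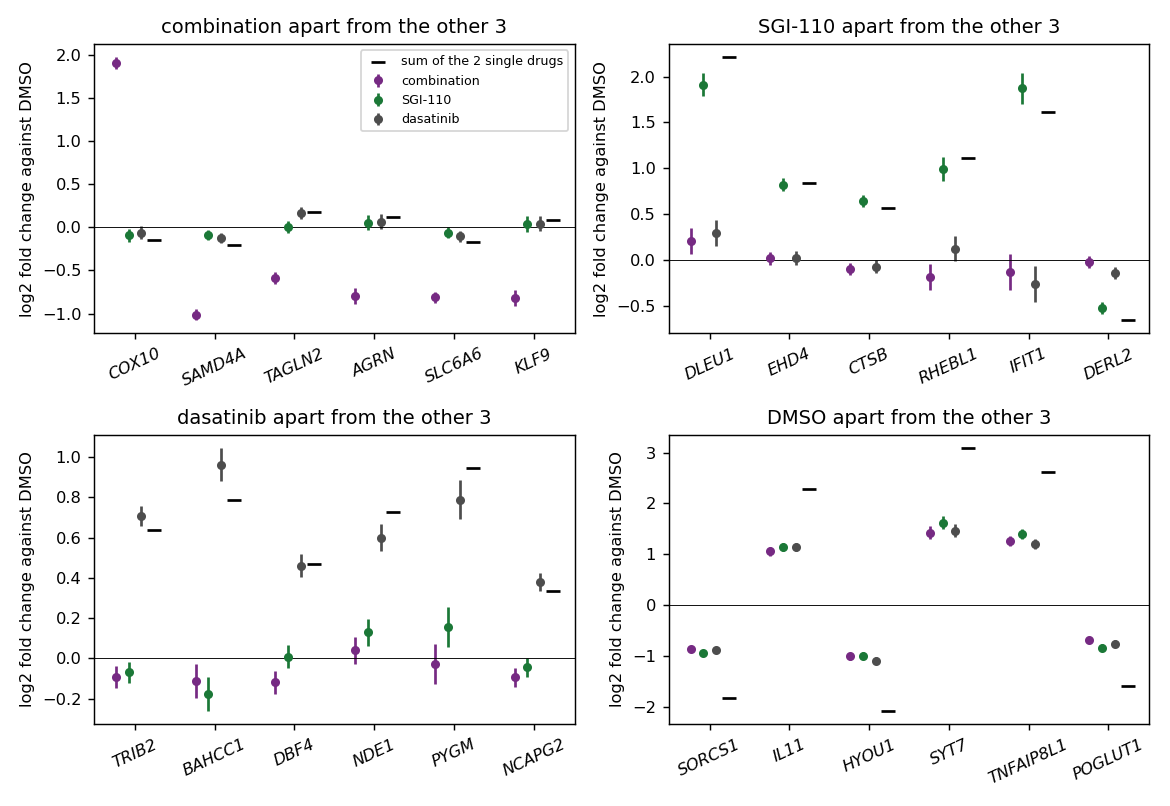
Panels show 6 genes for each treatment that stood apart, as log2 fold changes against DMSO for the combination (purple), SGI-110 (green) and dasatinib (grey) with bars of 1 standard error, and the sum of both single drugs as a black dash. In the upper left the combination alone is away from 0; in the lower right the 3 drug treatments share a level and the dash lies further from 0.

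At the level limit, the nearest genes inside were FAM9C (mean normalised count 100.06), ZNF192P1 (100.12) and RPS3AP26 (100.19), with interactions of 3.85 ± 1.25, 0.17 ± 0.25 and 0.40 ± 0.25. The interaction of FAM9C was called but rests on a treatment without a measurable level, since dasatinib alone stood at -5.04 ± 1.24 in the authors' deposited tables. The nearest outside were GALC (99.95), AC062029.1 (99.90) and RP11-147I3.1 (99.89), with -1.91 ± 0.83, -0.27 ± 0.20 and 0.49 ± 0.28.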

How the data were processed

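RNA of 24 libraries (8 groups of 3) was poly(A)-selected and sequenced with strand kept, per the labels' protocols. The authors' tools were Trim Galore 0.4.2, HISAT2 2.1.0, featureCounts 1.5.1 and DESeq2 1.16.1 with GRCh38, per the submitters' processing notes, which give no order. The 4 tables deposited by the authors hold, for each gene, a mean normalised count (a signal over all libraries), a standard error on the log2 scale, a Wald score and p-values, with no value per library.

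Each log2 fold change was taken as score times standard error. The interaction was divided by its standard error, given a two-sided normal p and adjusted by Benjamini-Hochberg over all 29639 genes. This treats the 4 comparisons as coming from 1 model. Subtracting the SGI-110 table from the combination table, both against DMSO, gave the deposited combination effect over SGI-110 to within 0.00152 log2, but no such sum contains dasatinib against DMSO, so for that table the single model is an assumption. Comparisons of the combination and of SGI-110 with dasatinib used group variances solved from the 4 standard errors. A gene was measurable in a treatment where its group standard error stayed below 1.18 log2. The procedure was tested on simulated data.

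Named genes were, among called genes with a standard error of at most 0.5 and a measurable level in all 4 treatments, the 15 largest interactions in each direction, the 4 strongest per class and direction and up to 5 members per list. The drug targets and the 3 genes nearest each side of the level limit were named whatever their values. Other names, and the pattern of 1 treatment apart, were chosen after their values were seen. All lists were chosen with earlier results of these data known. Gene positions are from GENCODE release 29, and promoter windows, matched for 9400 of 11759 genes (79.9%), from RefSeq. In 27 rows a date stood in place of a name, and these were counted but not named. Some genes are not reported here. Python 3.11.15 was used with numpy 2.4.6, pandas 2.3.3, scipy 1.17.1 and matplotlib 3.10.9. Alternatives varied the level limit, the adjustment, the threshold, the reference distribution, the centring and the genes left out.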

Additional observations from a re-analysis of the deposited data

Results flagged for a closer look

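In 8 genes with strong statistics, dasatinib was called in opposite directions with and without SGI-110, and the difference itself passed the interaction test. The interaction was -2.90 for DMBT1 and -1.94 for PECAM1, both described above. PADI3, which converts arginine to citrulline in proteins, had -1.95: it fell by 0.36 ± 0.09 on top of SGI-110, against a rise of 1.59 ± 0.09 alone, in the authors' deposited tables, and SGI-110 itself left it near 0, with a standard error of 0.09. The calcium pump gene ATP2B4 had -1.90, from a fall of 0.54 ± 0.05 on top of SGI-110, against a rise of 1.35 ± 0.06 alone, in the authors' deposited tables. The 4 with positive values act in RNA processing or protein folding. SRSF6, a splicing factor, had 0.88 and CPSF7, a subunit of a cleavage factor at poly(A) sites, had 0.76. PABPC1L, which resembles the poly(A)-binding protein, had 1.35, and the disulfide-forming enzyme QSOX2 had 0.95.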

How the results depend on the processing

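The number of genes with a called interaction ran from 2576, at a mean normalised count of 500 or more, to 4461, with p-values adjusted over the 11759 genes alone, and was within 1.5 times the reported 3790 under every alternative run. With the level limit at 500, the genes past 1 log2 numbered 102 and the synergy genes 903; fewer genes were tested there. Antagonism covered more genes than synergy in each alternative that gave classes, with 1615 to 2555 genes, against 903 to 1683. All of them kept the same definitions, which count reversed genes as antagonism even where the response on top of SGI-110 was the larger. Taking off the median interaction left 3757 genes called, and leaving out the genes with DMSO apart, an alternative chosen after seeing the data, left 3509. No named gene changed sign, which of the 5 alternatives run on single genes only the centring could have done. Of the 246 named genes with a called interaction, 230 kept it under each of these 5. The combination minus both single drugs, which is 1 of the 5, is the same quantity by another subtraction, so its counts could not differ. The exceptions include FAM9C (not measurable with dasatinib alone), LYN, DDR2, YES1, ATF5 and TNNC2, which lost their call at an adjusted p under 0.01, and PDGFRB, not called before, gained one with adjustment over the 11759 genes alone; the cause was not tested. Among list counts 6 of 160 moved by over 1.5 times, each by few genes. No paired analysis was possible because the tables hold no value per library, and for the same reason no replicate could be left out and depth per library is unknown.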
